A study of Homo sapiens with 7 samples.

Results

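The 10 genes JUN, JUNB, JUND, FOS, FOSB, FOSL1, EGR1, IER2, IER3 and MYC were taken by symbol from the 3 deposited count tables, in which 16044 genes had reads on the sense strand. They are immediate early genes and MYC, chosen by name, though earlier results of these data were known at the time. All 10 were listed in the tables of the first batch, and 8 in that of batch 2, which does not list FOS or IER2. Reads were those of 3′READS, in which 1 read marks 1 cleaved and polyadenylated 3′ end, so that levels do not scale with transcript length. The libraries came from HEK293 cells, a human embryonic kidney line, treated with siRNA.

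In the first batch, made with 3′READS, there was 1 library each of siCtrl (control siRNA), siStar-PAP, siPAPα, siPAPγ and siPAPα+siPAPγ (both siRNAs together). Batch 2 was made with 3′READS+ and held 1 library each of siCtrl and siStar-PAP. Star-PAP (TUT1), PAPα (PAPOLA) and PAPγ (PAPOLG) are poly(A) polymerases. Nothing in the labels says that libraries of a group came from separate cultures, and batch cannot be told apart from library protocol. The labels give no batch for the siPAPα+siPAPγ library. It is counted with the first batch here because its counts were deposited beside the same siCtrl library. It is set against that siCtrl library, as are the other 3 knockdowns of the first batch. Whether it differs from them by batch was not tested.

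Immediate early genes are transcribed within minutes of a stimulus without new protein synthesis, and their mRNAs are mostly short-lived. JUN, JUNB, JUND, FOS, FOSB and FOSL1 encode subunits of AP-1, a dimeric transcription factor. EGR1 encodes a zinc finger transcription factor, IER2 and IER3 encode early response proteins, and MYC encodes a transcription factor that dimerises with MAX. A poly(A) site (PAS) is usually cleaved some bases downstream of the hexamer AATAAA or a variant of it.

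Bases −35 to −6 before the site of cleavage are shown for the genes whose level or PAS use the results turn on, in the hg19 build and on the strand of the transcript. Capitals mark AATAAA, which was searched in the last 40 bases on the strand of the transcript only. The second FOSL1 site and the 2 sites of JUND hold no such hexamer.
IER3, chr6:30710982-30711011, minus strand: tctgtgaacacaAATAAAattgatttactg
FOSL1 first site, chr11:65659698-65659727, minus strand: aacctaccaaaatggAATAAAaggcttgaa
FOSL1 second site, chr11:65659618-65659647, minus strand: ggagccctaggtcccagccttagctctaca
FOSL1 distal site, chr11:65657589-65657618, minus strand: ggattcgtttgttcAATAAAcgttttttat
JUN site 1, chr1:59247168-59247197, minus strand: tgattactgtcAATAAAcagcttcatgcct
JUN site 2, chr1:59247061-59247090, minus strand: agtttaccatttgtAATAAAgtatataatt
JUN site 3, chr1:59246998-59247027, minus strand: gatatttaagaaaatacAATAAActattgg
JUN site 4, chr1:59246469-59246498, minus strand: agcattcttgtcacAATAAAtgtattcaaa
JUND first site, chr19:18390791-18390820, minus strand: atgtttctactcgggaacaaacgttggttg
JUND second site, chr19:18390576-18390605, minus strand: ccggttttctgttttcagtaaagtctcgtt

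The sites of IER3, JUN and JUND and the first 2 of FOSL1 lie in annotated UTR, and the distal sites of FOSL1 lie beyond its annotated exons. Over the 39 last-exon PASs of the 10 genes, 20 (51.3%) had AATAAA, against 44.6% of 50258 last-exon PASs of all genes. ATTAAA was counted only where AATAAA was absent. By that rule none of the members' sites had ATTAAA, against 15.4% of all sites. The last EGR1 site, counted under AATAAA, also holds ATTAAA. ATA in the −100 to −41 window was found before 16 of the members' sites, and before 59.7% of all sites. ATTTA, the core of the AU-rich element that marks many short-lived mRNAs, was found in the 300 bases before 61.5% of the members' sites and 47.8% of all sites. All 3 searches used the transcript's strand, and a match is a description of letters only.

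Of the targeted genes, TUT1 had 83 reads with siCtrl and 2 with siStar-PAP, a ratio of 0.0166 (95% interval 0.00198 to 0.0620) once the reads were divided by library depth, as in all ratios of levels here. In batch 2 it had 6 and 4 reads, a depth-scaled ratio of 0.792 (0.164 to 3.34). That interval includes 1 and lies wholly above that of the first batch, so a fall of the first batch's size was not seen in batch 2. PAPOLA had 71 reads with siCtrl and 12 with siPAPα (0.0770, 0.0380 to 0.143). It was also lower with siStar-PAP, at 44 reads (0.428, 0.287 to 0.632). In the table of siPAPα+siPAPγ it had 78 and 8 reads (0.0624, 0.0260 to 0.129). PAPOLG had 5 reads with siCtrl and 15 in the library labelled siPAPγ (2.32, 0.800 to 8.15), so its knockdown could not be seen in these reads, which bears on each direction drawn from that library. With siPAPα+siPAPγ it had 6 reads (0.730, 0.186 to 3.02), so the PAPγ knockdown could not be seen there either. PAPOLG also lay above siCtrl where it was not targeted. It had 28 reads with siStar-PAP (3.87, 1.47 to 12.8) and 36 with siPAPα (3.28, 1.28 to 10.7). In batch 2 the ratio was 2.48 (1.16 to 5.64), so its 5 siCtrl reads are a weak reference. The paper reports that the knockdowns were seen by immunoblot of the proteins, which these reads do not measure. The deposited reads per library ranged from 2362875 in batch 2 siStar-PAP to 16245257 for siPAPα. Of the HEK293 markers VIM, NEFM, NEFL, INA, LIN28B, PAX2 and GATA3, all 7 were listed, and none of 7 was called by edgeR in the fit described next (1 at an unadjusted p under 0.05, and 0 called by DESeq2). Of 6 markers of other cell types, CD14 alone was listed, at 0.235 to 1.39 RPM, the reads of a gene scaled to a common library size.

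Levels are RPM, divided by the number of reads that passed the authors' 3′ end filter in each library. With 1 library per condition and batch, ratios between libraries have no replicate check. Intervals on levels and ratios, at the 95% level, cover counting error only. PCR reads are not independent molecules. A change was called when it was above 2-fold with more than 50 reads in the pair. In every pair the median gene lay below siCtrl, by −0.45 (siStar-PAP), −0.26 (siPAPα), −0.33 (siPAPγ), −0.38 (siPAPα+siPAPγ) and −0.16 (batch 2) on the log2 scale. TMM factors moved that median up by 0.18 to 0.48. The deposited counts held 70.9% of the reads used as divisor with siCtrl, 67.5% with siStar-PAP, 64.8% with siPAPα, 58.9% with siPAPγ and 58.2% with siPAPα+siPAPγ. In batch 2 they held 55.0% with siCtrl and 55.6% with siStar-PAP. A share below that of siCtrl lowers the RPM ratios of that library. With deposited totals as depth, the log2 ratio of JUN with siPAPγ was −0.42 in place of −0.69. Log2 ratios are therefore also given relative to the median gene.

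IER3, an early response gene known for roles in cell survival, had the clearest change of the 10. It had 241 RPM with siCtrl, 67.3 with siStar-PAP, 51.8 with siPAPα, 80.2 with siPAPγ and 56.6 with siPAPα+siPAPγ. In batch 2 it had 30.1 RPM with siCtrl and 7.06 with siStar-PAP. Each knockdown library lay below the siCtrl library of its batch, and the intervals did not overlap. The ratio to siCtrl was 0.279 (0.260 to 0.299) with siStar-PAP, 0.215 (0.201 to 0.230) with siPAPα, 0.332 (0.310 to 0.356) with siPAPγ, 0.235 (0.219 to 0.252) with siPAPα+siPAPγ and 0.234 (0.153 to 0.349) in batch 2. Relative to the median gene these were −1.39, −1.96, −1.26, −1.71 and −1.93 on the log2 scale. IER3 was listed with a single PAS.

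FOSL1, the FRA1 subunit of AP-1, followed. It had 18.6 RPM with siCtrl, 4.71 with siStar-PAP, 5.66 with siPAPα, 5.14 with siPAPγ and 3.25 with siPAPα+siPAPγ. The ratio was 0.254 (0.193 to 0.331), 0.305 (0.245 to 0.379), 0.277 (0.210 to 0.361) and 0.175 (0.129 to 0.234) in that order. In batch 2 there were 9 reads with siCtrl and 0 with siStar-PAP, at least 2.53-fold lower when 3 reads stand for the count of 0 and the 9 reads are taken as exact. With the counting error of both libraries the upper limit of the ratio was 0.602. Every knockdown library was below its siCtrl.

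FOS, the partner of JUN in the classical AP-1 dimer, was near the limit of detection. It had 29 reads with siCtrl, 11 with siStar-PAP, 17 with siPAPα, 3 with siPAPγ and 5 with siPAPα+siPAPγ, and no pair reached the read minimum. The ratio was 0.262 (0.118 to 0.540) with siStar-PAP, 0.267 (0.138 to 0.502) with siPAPα, 0.0799 (0.0156 to 0.258) with siPAPγ and 0.105 (0.0317 to 0.274) with siPAPα+siPAPγ. All 4 intervals lay below 1, but all 4 ratios share the same siCtrl library and its 29 reads.

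JUN ranked after JUND and IER3 with siCtrl in the first batch. It had 87.2 RPM with siCtrl, 62.8 with siStar-PAP, 77.6 with siPAPα, 54.1 with siPAPγ and 55.3 with siPAPα+siPAPγ, and 16.0 and 17.2 with siCtrl and siStar-PAP of batch 2. Relative to the median gene it moved by −0.03, 0.09, −0.36, −0.27 and 0.26 on the log2 scale in the order of the comparisons above, and under TMM factors the sign of its log2 ratio to siCtrl turned with siStar-PAP and siPAPα.

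JUND, which is expressed in many cells without a stimulus, had the highest level. It had 365 RPM with siCtrl, 294 with siStar-PAP, 207 with siPAPα, 384 with siPAPγ and 271 with siPAPα+siPAPγ. In batch 2 it had 1909 RPM with siCtrl and 1230 with siStar-PAP, so that JUND held most of the members' reads there, and the 2 most abundant members made up 98.5% and 99.0% of them. In the first batch that share was 80.7% to 87.6%. Its log2 ratio was −0.31, −0.82, 0.07, −0.43 and −0.63, and TMM factors turned its sign with siStar-PAP and siPAPα+siPAPγ. No comparison called JUN or JUND.

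FOSB, EGR1 and JUNB had 0.235 to 7.92 RPM where they had reads. FOSB had 71, 131, 117, 58 and 61 reads in the first batch in the order siCtrl, siStar-PAP, siPAPα, siPAPγ and siPAPα+siPAPγ. EGR1 had 38, 72, 67, 9 and 26 reads. In siPAPγ and siPAPα+siPAPγ EGR1 lay below siCtrl, with ratios of 0.183 (0.0778 to 0.385) and 0.416 (0.243 to 0.703). The second was past 2-fold with enough reads, but not under TMM factors. In batch 2, FOSB had 23 reads with siCtrl and 1 with siStar-PAP (0.0517, 0.00125 to 0.318) and EGR1 had 28 and 3 (0.127, 0.0248 to 0.412), while in the first batch both lay above siCtrl with siStar-PAP with intervals that included 1.

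JUNB, another AP-1 subunit, had 17, 37, 33, 23 and 9 reads, and 0 and 4 in batch 2. IER2 had 4, 18, 8 and 3 reads in the first 4 libraries, and 10 with siPAPα+siPAPγ with 0 in the siCtrl column of that table. MYC had 9, 4, 24 and 4 reads in the same order, and 4 and 17 in the table of siPAPα+siPAPγ. The siCtrl numbers of MYC and IER2 differ between the tables, which list different sites. In batch 2 MYC had 7 reads with siCtrl and 16 with siStar-PAP (2.72, 1.06 to 7.81). The intervals of the 2 genes are wide, and MYC did not go one way in all libraries.

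**Figure D1:**
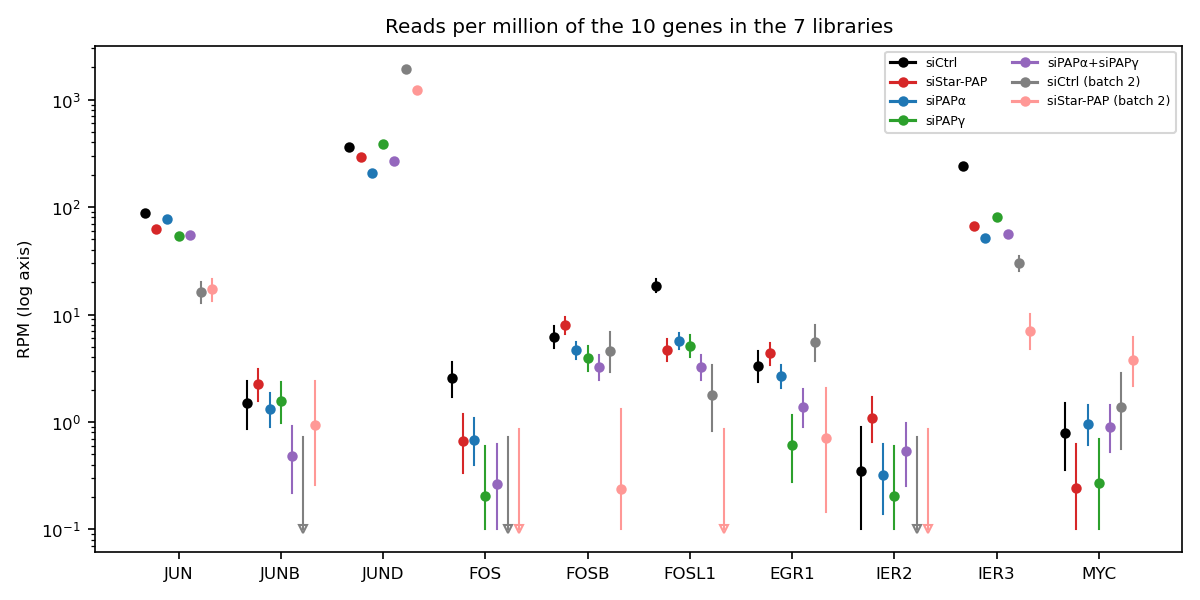
RPM (log axis) of the 10 genes in the 7 libraries, with 95% Poisson intervals cut at the lower axis limit. Open triangles mark a count of 0. The IER3 points of knockdown libraries sit at 51.8 to 80.2 RPM in the first batch, below 241 RPM with siCtrl.

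Of the members with enough reads, 2 of 7 were lower by more than 2-fold with siStar-PAP, where 26.2% of all 10079 genes were. In siPAPα it was 2 of 6 against 22.1%, with siPAPγ 2 of 5 against 20.7%, with siPAPα+siPAPγ 3 of 6 against 26.5%, and in batch 2 it was 1 of 3 against 11.7%. IER3 was among them in each comparison, and FOSL1 in the 4 of the first batch. No member was higher by more than 2-fold, where 4.44%, 8.50%, 5.67%, 6.98% and 3.55% of genes were. With so few members these shares do not set them apart from all genes. The median log2 ratio of the members was −0.31, −0.62, −0.69, −1.10 and −0.63, beside −0.45, −0.26, −0.33, −0.38 and −0.16 for all genes. The percentile of IER3 among the genes compared was 7.51, 3.92, 7.61, 5.92 and 1.32 from the bottom.

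**Figure D2:**
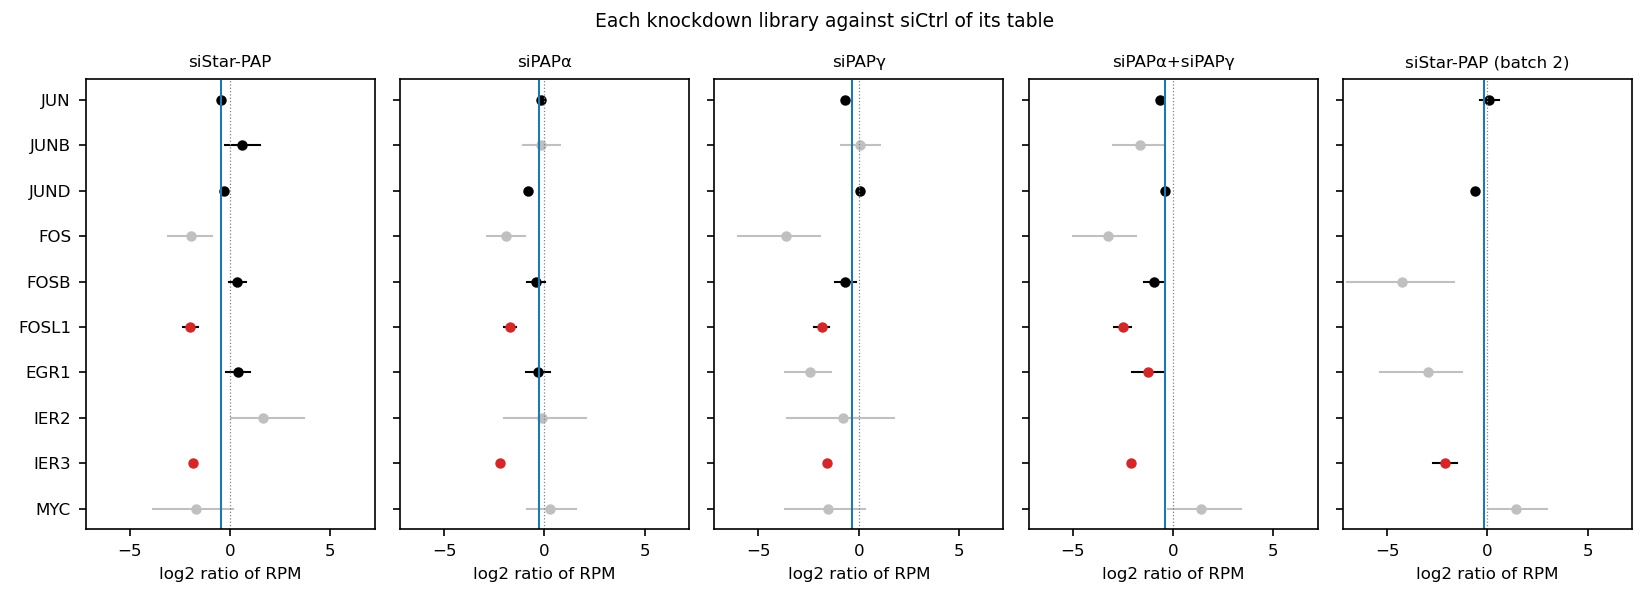
Log2 ratio of RPM to siCtrl for each gene with reads in both libraries, with 95% counting intervals cut at the axis limits. Red points are lower by more than 2-fold, grey points had too few reads to be called, and the blue line is the median gene. IER3 is red in all 5 panels and FOSL1 in the 4 of the first batch.

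With edgeR's quasi-likelihood test on the 4 siCtrl and siStar-PAP libraries of both batches, with batch as a block, 8 of the 10 members passed the expression filter. FOS and IER2 did not. IER3 fell, with a log2 fold change of −1.57 ± 0.35 (SE) and an adjusted p of 0.0185, and was the only member called lower, where 1.08% of 11878 genes were. No member was called higher, where 1.23% of genes were. DESeq2 called none higher either, but it gave an adjusted p to JUN, JUND and IER3 only. The other members, JUNB among them, could not be called by it. At an unadjusted p under 0.05, 2 of the 8 members passed, IER3 and FOSL1, as did 15.0% of all genes tested. FOSL1 had a log2 fold change of −1.85 ± 0.65 and an adjusted p of 0.157 in edgeR. The other 6 had log2 fold changes between −0.50 (EGR1) and 1.83 (JUNB), with edgeR adjusted p between 0.556 and 0.943. The median over the members was −0.30, beside 0.00 over all genes tested. The fit has 1 residual degree of freedom, and its batch 2 siStar-PAP library is the one in which TUT1 showed no fall like that of the first batch. Without the block edgeR called no gene, with 54 genes and 0 members at an unadjusted p under 0.05, and the adjusted p of IER3 in edgeR was 1.

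The use of each PAS against the rest of its gene was tested by Fisher's exact test, two-sided, on 2 libraries at a time, with Benjamini-Hochberg adjustment over all sites and for genes with at least 20 reads in each library. It compares those libraries and not the conditions. In siStar-PAP 12 of 20 member PASs passed, where 40.7% of all PASs did. In siPAPα it was 11 of 21 against 42.5%, with siPAPγ 6 of 14 against 29.6%, with siPAPα+siPAPγ 8 of 20 against 39.1%, and in batch 2 none of 6 against 8.61%, where 0 had an unadjusted p under 0.05.

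JUN was listed with 4 sites in its last exon, at 0, 107, 170 and 699 nt from the most 5′ one, and each follows AATAAA. The first site held 6.12% of JUN reads with siCtrl (exact Clopper-Pearson interval 4.72 to 7.80). It held 12.6% (10.6 to 14.8) with siStar-PAP, 16.9% (15.3 to 18.6) with siPAPα, 11.4% (9.26 to 13.8) with siPAPγ and 15.0% (12.9 to 17.3) with siPAPα+siPAPγ. The Fisher adjusted p was 8.44e-06, 3.54e-16, 0.000734 and 1.16e-09. In batch 2 it held 17.3% (9.78 to 27.3) with siCtrl and 31.5% (21.1 to 43.4) with siStar-PAP, with an adjusted p of 0.247 by Fisher's exact test.

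The second site of JUN moved the other way. It held 49.1% with siCtrl, 39.5% with siStar-PAP, 29.7% with siPAPα, 40.8% with siPAPγ and 30.9% with siPAPα+siPAPγ, with an adjusted p by Fisher's exact test of 0.000127, 5.21e-23, 0.00293 and 1.58e-15. The site at 170 nt held 26.6% with siCtrl and 33.3% to 38.8% in the 4 knockdown libraries, all with an adjusted p under the threshold. In batch 2 that site held 14.8% and 5.48%, the opposite direction, and did not pass.

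FOSL1 sites differed between knockdowns. The first site held 48.6% with siCtrl, 20.5% with siStar-PAP, 64.8% with siPAPα, 64.5% with siPAPγ and 72.1% with siPAPα+siPAPγ. It was lower with siStar-PAP (Fisher's exact adjusted p = 0.000119) and higher with siPAPα (0.0106) and siPAPα+siPAPγ (0.00542), while siPAPγ missed the threshold (0.0685). The site 2109 nt downstream held 19.8% with siCtrl, 38.5% with siStar-PAP and 3.52% with siPAPα, both past the threshold by Fisher's exact test. With siPAPγ (19.7%) and siPAPα+siPAPγ (11.5%) it did not pass. The second site, 80 nt from the first, held 25.9% with siCtrl and 6.58% with siPAPγ (Fisher's exact adjusted p = 0.00178). That second site was higher with siStar-PAP than with siCtrl (Fisher's exact adjusted p = 0.0386). With siPAPα (27.5%) and siPAPα+siPAPγ (16.4%) the second site did not pass. The first site had 103 reads with siCtrl and 16 with siStar-PAP, a ratio of RPM of 0.107, against 0.493 at the distal site 2109 nt downstream. A further site, 2156 nt from the first, had 12 reads with siCtrl and 0 with siStar-PAP, with an upper limit of the ratio of 0.248. Its share did not pass (Fisher's exact adjusted p = 0.0857), so the distal sites did not all keep more reads than the first.

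JUND has 2 sites 215 nt apart, neither with AATAAA. The first held 7.48% with siCtrl, 9.03% with siStar-PAP, 5.77% with siPAPα, 13.6% with siPAPγ and 3.79% with siPAPα+siPAPγ. All 4 differences passed by Fisher's exact test, none by more than 6.10 percentage points. In batch 2 the first JUND site held only 0.0934% with siCtrl (9 of 9636 reads) and 0.0383% with siStar-PAP (2 of 5228). That difference did not pass (Fisher's exact adjusted p = 0.627). EGR1 was listed with 7 sites. The one 470 nt from the first rose from 13.2% to 55.6% with siStar-PAP, 47.8% with siPAPα and 50.0% with siPAPα+siPAPγ, on 5, 40, 32 and 13 reads. In batch 2, 24 of the 28 siCtrl reads of EGR1 were at its last site, which had 0 reads with siCtrl of the first batch. In FOSB the site 329 nt from the first held 7.04% with siCtrl and 24.4% with siStar-PAP (Fisher's exact adjusted p = 0.00816).

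**Figure D3:**
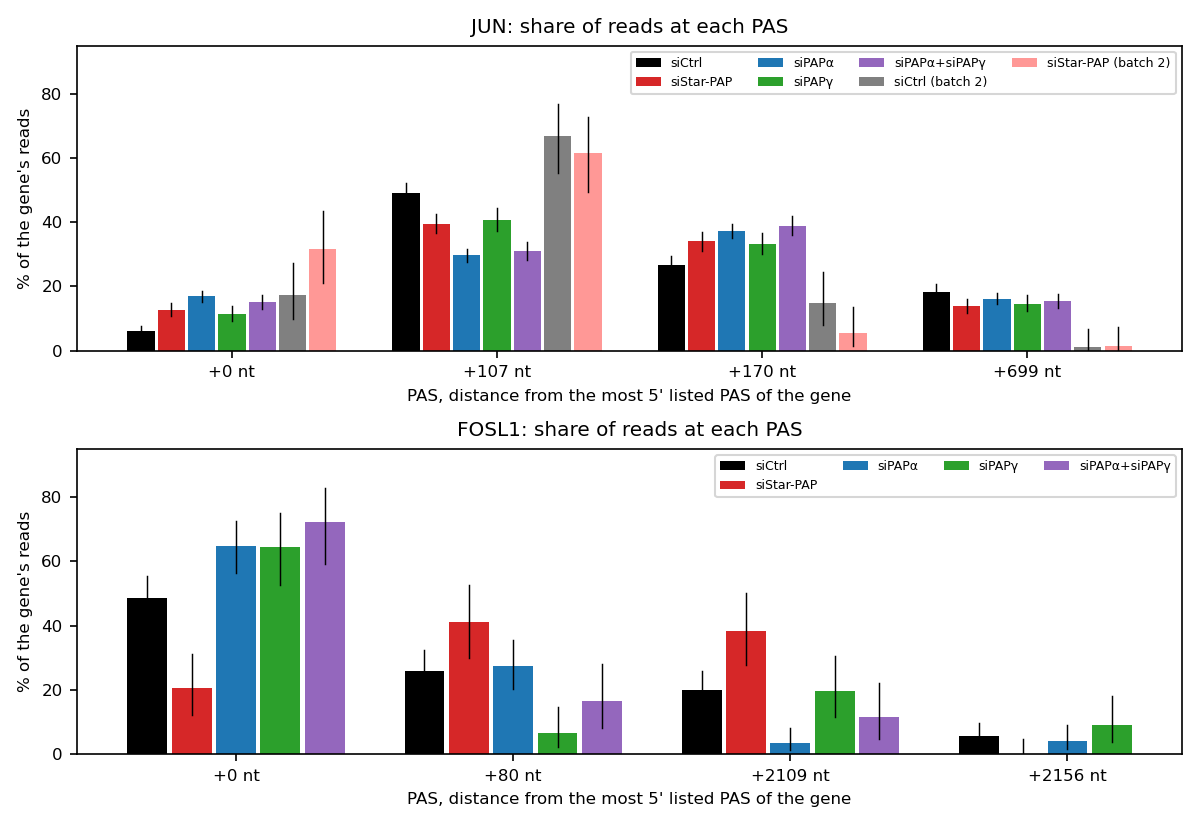
Share of a gene's reads at each PAS of JUN (7 libraries) and FOSL1 (5 libraries with at least 20 reads), with 95% Clopper-Pearson intervals. The first JUN site is at 6.12% with siCtrl and 11.4% to 16.9% in the knockdown libraries of the first batch. The first FOSL1 site is at 20.5% with siStar-PAP and above 48.6% in the other knockdowns.

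Among 44 other immediate early and early response genes, 38 were tested in edgeR over both batches, and 1 was higher and none lower at an adjusted p under 0.05. Of all genes tested, 1.23% were called higher and 1.08% lower. At an unadjusted p under 0.05, 7 were lower and 4 higher of the 38, beside 15.0% of all genes in either direction, and DESeq2 called 1 higher and 0 lower. The higher one, ZFP36L2, which encodes a protein that binds AU-rich elements, had a log2 fold change of 2.23 ± 0.48 (adjusted p = 0.0165). The median was −0.25. Of the 15 genes of this list with at least 50 reads in each batch, the lowest were MAFF (−1.52), PPP1R15A (−1.11) and ID1 (−1.05), and the highest were NR4A2 (1.27), SRF (1.04) and CSRNP1 (0.37), none called by edgeR. PPP1R15A, which encodes a regulator of eIF2α phosphorylation, had 215 RPM with siCtrl and 61.9, 51.0, 76.2 and 40.5 in the 4 knockdowns of the first batch. In the pairs, 12 of 30, 8 of 32, 9 of 28, 15 of 29 and 6 of 20 genes of the list were lower by more than 2-fold, beside 26.2%, 22.1%, 20.7%, 26.5% and 11.7% of all genes. Higher by more than 2-fold were 1, 2, 1, 2 and 3, beside 4.44%, 8.50%, 5.67%, 6.98% and 3.55%.

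In the AP-1 family list, which shares 6 genes with the members, 12 were tested. JDP2, which encodes a repressive partner of JUN, fell by 2.00 on the log2 scale (SE 0.48, edgeR adjusted p = 0.0272). It was the only one called, where 1.08% of all genes were called lower. At an unadjusted p under 0.05 in edgeR, 2 of the 12 were lower and 0 higher, beside 15.0% of all genes in either direction. JDP2 had 10.3 RPM with siCtrl and 2.84, 1.08, 1.83 and 0.479 in the knockdowns, and 26.3 and 3.29 in batch 2, but DESeq2 did not call it. Of 15 MYC target genes tested, NPM1 (1.60 ± 0.35, adjusted p = 0.0173) and SRM (1.57 ± 0.34, adjusted p = 0.0164) rose in edgeR, where 1.23% of all genes were called higher. At an unadjusted p under 0.05, 6 of the 15 were higher and 0 lower, beside 15.0% of all genes in either direction, and DESeq2 called 2 higher and 0 lower. None of 10 MYC partners and antagonists and none of 12 upstream kinases and factors was called in either direction by edgeR or DESeq2, with 1 and 2 at an unadjusted p under 0.05. Among 15 AU-rich element binding and decay factors only ZFP36L2, which is also on the early gene list, was called, where 1.23% of all genes were called higher.

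The genes whose level over the 7 libraries was most like the mean profile of the members, among 3763 genes with at least 50 reads in every library, were CREB3 (Pearson r = 0.976), TUBB (0.975), UBE2L3 (0.971), KIAA0895 (0.964) and REPS1 (0.962). The r is a description over libraries that share a batch and a control. CREB3 had 153 RPM with siCtrl, 106 with siStar-PAP and 53.1 with siPAPα+siPAPγ. In batch 2 it had 31.5 RPM with siCtrl and 21.9 with siStar-PAP, so the difference between batches also enters the r.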

How the data were processed

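3′READS and 3′READS+ libraries of 7 samples were read from 3 tables of counts. Per the labels, Bowtie2 and the hg19 build were used, and the deposited values are raw counts of reads per PAS that the authors did not normalize. PAS positions are those of the tables. The tables were joined by gene symbol, sense sites were summed per gene, and 0 columns of other samples were left over. Sites listed more than once for a gene were kept once. RPM (reads scaled to a common library size) used the authors' totals of reads at poly(A) sites. The siCtrl library is in 2 tables, where 99.7% of shared sites have the same count.

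The fit used edgeR 4.0.16 with TMM factors, filterByExpr and the batch (replicate number) as a block, since the labels name the batch and each has its own siCtrl and library protocol. Deviations from the group means of siCtrl and siStar-PAP correlated within batches at r = 0.852 over the 11878 genes tested. DESeq2 1.42.0 was an alternative. Missing genes in a table were taken as 0 in the fit. PAS shares were compared in Python 3.11.15 with scipy 1.17.1. Sequences were read from GRCh37. The tests were run on simulated data first. The 10 genes, the other lists and the rule for named genes were chosen with earlier results of these data known. All members are named, with up to 4 called genes of each list, the 3 lowest and 3 highest early genes, and the 5 most alike genes. Targeted genes and markers were added as checks. Effects of alternatives are in the closing section.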

Additional observations from a re-analysis of the deposited data

Results flagged for a closer look

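For 3 members, siStar-PAP lay on opposite sides of siCtrl in the 2 batches, among members with at least 20 reads in each. The log2 ratio of batch 2 minus that of the first batch was 0.57 for JUN, −4.62 for FOSB and −3.36 for EGR1. These ratios use totals of reads at poly(A) sites. With TMM factors JUN lay above siCtrl in both batches (0.0068 and 0.28) and JUND lay on opposite sides (0.17 and −0.46). The difference between batches was not tested. FOSB rests on 1 read and EGR1 on 3 reads in siStar-PAP of batch 2, and the batches also differ in library protocol.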

How the results depend on the processing

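The batch was the replicate block of the edgeR fit. Without the block IER3 had a log2 fold change of −1.39 (adjusted p = 1 in edgeR), FOSB 0.032, and 0 members and 0 genes were called in either direction. Over the other settings of the fit the adjusted p of IER3 ran from 0.00172 to 0.0331. Against 128 lower and 146 higher genes, DESeq2 called 83 lower, no filter on low counts 232 lower, and PASS read totals as library sizes 63 lower and 13 higher, with JUN at −0.21. When one batch at a time was left out, a value with no test, log2 fold changes ran from −1.90 to −1.37 for IER3, −3.82 to −1.50 for FOSL1, −0.0025 to 0.28 for JUN, −0.46 to 0.16 for JUND, −3.54 to 0.81 for FOSB, −2.60 to 0.85 for EGR1, 1.04 to 3.60 for JUNB and −1.14 to 1.56 for MYC.

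With no filter on reads, the members lower by more than 2-fold were 4 in siStar-PAP, 5 in siPAPγ, 5 in siPAPα+siPAPγ and 4 in batch 2, and those higher were 1 in siStar-PAP, 2 in siPAPα+siPAPγ and 2 in batch 2. With a 1.5-fold threshold 4 were lower in siPAPγ, 5 in siPAPα+siPAPγ and 2 in batch 2, and 1 was higher in siStar-PAP. TMM factors and DESeq2 size factors each made 1 member higher in siStar-PAP, JUNB. Above 200 reads in the pair, 0 were lower in batch 2. IER3 and FOSL1 kept their direction under each scaling tried.

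Of the member PASs with changed use, a change of at least 10 percentage points left 6 in siStar-PAP, 1 in siPAPγ and 5 in siPAPα+siPAPγ. At least 100 reads of the gene in each library left 6 in siStar-PAP, 7 in siPAPα and 5 in siPAPα+siPAPγ. The cause of these changes was not tested. Depth limits FOS, IER2, JUNB and MYC, and all members but JUN, JUND and IER3 in batch 2.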
